A study of Homo sapiens with 23 samples.

Results

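The experiment described here is 24 h of Src induction in MCF-10A-ER-Src cells that carried a control siRNA, and it takes 6 of the 23 expression arrays of the series. MCF-10A is a non-transformed line of human mammary epithelial cells, and in this derivative the Src kinase is joined to the hormone-binding region of the estrogen receptor and stays inactive until tamoxifen (TAM) is added. The 6 arrays were chosen by their sample titles alone. In 3 of them the cells received 1 µM TAM (4-hydroxytamoxifen) for 24 h, and in the other 3 they received the vehicle ethanol (EtOH) for the same time. All 6 had been transfected 48 h before the treatment with a 25 nM non-targeting siRNA pool, which the methods call siSCM and the sample titles siNEG, and all grew in medium with serum, epidermal growth factor, insulin, hydrocortisone and cholera toxin. The remaining arrays cover 4 h of the same treatments and cells with an siRNA against STAT3. They enter here through the shared estimate of spread, and the 4 h arrays with control siRNA also as the nearest comparison. No array of MCF-10A cells without the fusion protein was analysed here, so the effects of tamoxifen and of Src cannot be told apart. The methods speak of 3 biological replicates, and since the sample descriptions do not say that the replicates were separate cultures, the p-values measure only the spread among these arrays.

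Src is a tyrosine kinase at the inner face of the cell membrane that acts on adhesion sites, on the Ras and ERK cascade and on STAT3. STAT3 is a transcription factor that interleukin-6 and related cytokines also activate, and it switches on its own inhibitor SOCS3 together with acute-phase proteins. AP-1, a pair of FOS and JUN family proteins, is the nuclear end of the ERK cascade, and epithelial cells under such signals often loosen their junctions and make more proteases and cytokines.

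RNA was measured with a 3′ expression array of 54675 probe sets, of which 41097 carry a single gene symbol and represent 19775 genes. Values are MAS5 signals in arbitrary units on a linear scale, and signals under about 100 units are close to the background of the array. The median signal of the 6 arrays was 75.5 to 82.0 units. Between replicates the absolute log2 difference averaged 0.173 to 0.201 over 24557 probe sets, and 3 arrays a group limit the precision. SRC measured 216, 250.3 and 175 units with EtOH and 151, 30.7 and 55.9 units with TAM, ESR1, the estrogen receptor gene, measured 302, 240.0 and 275 units with EtOH and 372, 286 and 283 units with TAM, and neither passed the test used below (adjusted p = 0.0349 and 0.699). Whether these probe sets read the fusion transcript was not tested. Markers of the labelled cell type were present. All 7 measured basal mammary markers were above 100 units, with a summed signal of 70783 to 78607 units with EtOH and 67354 to 70852 units with TAM. The 9 measured luminal markers summed to 28454 to 33076 units with EtOH and 22981 to 25676 units with TAM. The 10 immune cell markers summed to 1213 to 1433 and 1122 to 1145 units. The leukocyte marker PTPRC was at 29.2 ± 7.08 and 30.9 ± 16.8 units, and CD14, at 845 ± 73.3 and 719.9 ± 15.9 units, made up most of the immune sum. The 8 endothelial markers summed to 529 to 691 and 489.8 to 602 units, and the 10 fibroblast markers to 7171 to 7514 units with EtOH and 8689 to 9822 units with TAM, most of it DCN, a matrix proteoglycan at 5212 ± 96.2 and 6858 ± 481 units. Means here and below are for EtOH and TAM arrays in this order, with the SD of 3 arrays. The part of cell composition in the results was not tested, and in bulk RNA fewer cells of a kind and less RNA per cell cannot be told apart.

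A day of TAM treatment moved 1209 genes, 600 upward and 609 downward. A gene was called when its probe set of highest mean signal had p under 1e-04 in limma and an absolute log2 change above 0.5, the limits that the methods give. Of the 19775 genes tested, 3.03% were called higher and 3.08% lower, and the median change over all genes was -0.04 on the log2 scale. These shares include genes near background. In a fit limited to the 11213 genes with a mean of at least 100 units in either group, 641 were higher and 645 lower. Adjusted p stands for the Benjamini-Hochberg value over all probe sets, and no called gene had one above 0.00211. Rises reached larger sizes than falls. The median change of called genes was 1.07 among the risers and -0.83 among the fallers, 50 genes rose and 7 fell by more than 8-fold, and 113 rose and 39 fell by more than 4-fold. In every called gene the 3 TAM arrays lay clear of the 3 EtOH arrays, a separation that 13.49% of all genes showed upward and 20.45% downward. The calls were kept in each of the 6 fits that left out 1 of these arrays by 475 of the 600 risers and 415 of the 609 fallers. Among fallers, EtOH replicate 3 was the lowest EtOH array in 286 of 609 genes, against 162 and 161 for the other EtOH arrays. Likewise TAM replicate 3 was the lowest TAM array in 259 of these genes, against 183 and 167 for the other TAM arrays. The counts depend on which arrays enter the fit. With the 6 arrays alone in the fit 211 genes were called higher and 75 lower, and in that fit the STAT3 list described below had 7 risers, the AP-1 list 6 and the junction list 1 faller.

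**Figure D1:**
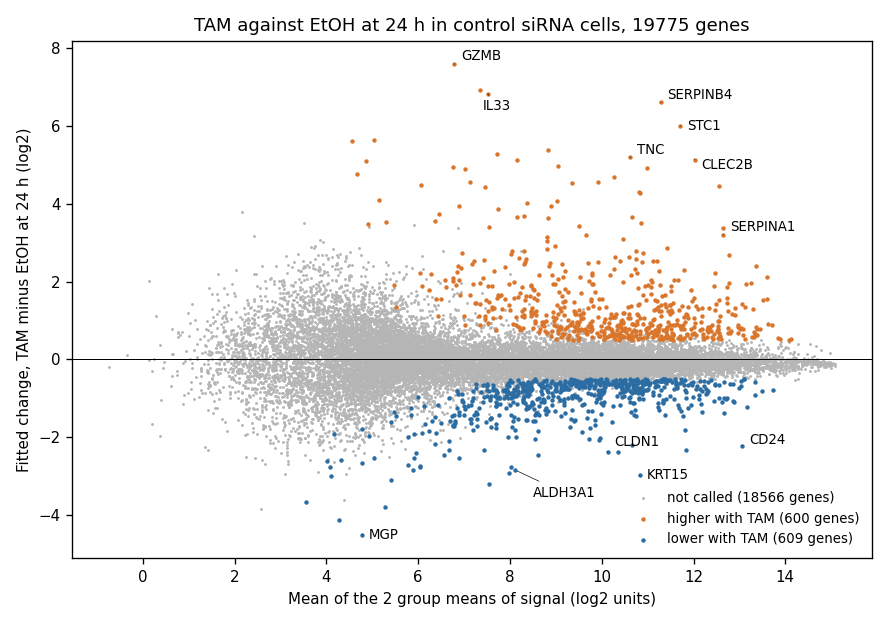
Fitted change with TAM at 24 h (log2) against the mean signal of the EtOH and TAM groups (log2 units) for 19775 genes. Orange marks the 600 genes called higher and blue the 609 called lower, and the rises of GZMB, SERPINB4 and STC1 reach further from 0 than any fall.

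The largest rises among genes with means of at least 100 units in both groups were those of SERPINB4, STC1, TNC, CLEC2B and IL24. SERPINB4 and SERPINB3, the squamous cell carcinoma antigens, inhibit cysteine and serine proteases. SERPINB4 measured 373, 226 and 177 units with EtOH and 24007, 23292 and 24762 units with TAM, a change of 6.61 (SE 0.52, adjusted p = 1.17e-07). SERPINB3 measured 1544, 1365 and 960.0 units with EtOH and 26790.2, 29127 and 27270.0 units with TAM, a change of 4.45 (SE 0.33, adjusted p = 5.44e-08). Their TAM arrays were far above every EtOH array. The genes are close copies of each other, so that their probe sets may share RNA. STC1, a secreted glycoprotein hormone, measured 502, 547 and 246 units with EtOH and 25238, 27092 and 26014 units with TAM, a change of 6.00 (SE 0.26, adjusted p = 7.80e-11). CLEC2B, a lectin-like ligand of a natural killer cell receptor, measured 816, 597 and 702 units with EtOH and 24034, 25664 and 24106 units with TAM, a change of 5.14 (SE 0.13, adjusted p = 4.36e-13). In both genes the TAM arrays agreed closely and the EtOH arrays spread more, with EtOH replicate 3 the lowest for STC1. RHOU, a small GTPase of cell shape, measured 255, 222 and 252 units with EtOH and 6724, 5793 and 6227 units with TAM, a change of 4.68 (SE 0.16, adjusted p = 9.14e-12). IL13RA2, a decoy receptor of interleukin-13, measured 180.5, 242 and 173 units with EtOH and 4592, 4805 and 4623 units with TAM, a change of 4.57 (SE 0.18, adjusted p = 3.09e-11). FGL1, a secreted protein first known from liver, and CHI3L1, a chitinase-like glycoprotein of inflamed tissue, rose by 4.52 and 4.30 on the log2 scale. GRAMD1B, a carrier of cholesterol between membranes, measured 96.2, 146 and 140.0 units with EtOH and 1983, 2278 and 2058 units with TAM, a change of 4.07 (SE 0.57, adjusted p = 8.49e-05). The TNC, IL24 and SOCS3 values follow with their gene groups.

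By the same limit on the level, the largest falls were those of KRT15, ADGRG1, ALDH3A1, PRR15L, CLDN1 and EHF. KRT15, a keratin of basal epithelial cells, measured 4819.7, 4789 and 5719 units with EtOH and 604, 622 and 715 units with TAM, a change of -2.98 (SE 0.12, adjusted p = 4.30e-11). CD24, a small glycoprotein anchored in the membrane of epithelial cells, measured 19634, 20337 and 14762 units with EtOH and 4022, 4934 and 2977 units with TAM, a change of -2.21 (SE 0.17, adjusted p = 6.66e-08). FGFBP1, which releases growth factors from the matrix, measured 8624, 8712 and 6965 units with EtOH and 1542, 2022 and 1358 units with TAM, a change of -2.32 (SE 0.13, adjusted p = 2.10e-09). All 3 stayed well above background with TAM, at levels under every EtOH array. PRR15L, a proline-rich protein, measured 924, 1064 and 718 units with EtOH and 233, 173 and 104 units with TAM, a change of -2.47 (SE 0.22, adjusted p = 5.13e-07). ADGRG1, an adhesion receptor coupled to G proteins, measured 585, 623 and 541 units with EtOH and 136, 171 and 19.4 units with TAM, a change of -2.92 (SE 0.51, adjusted p = 0.000773). TAM replicate 3 of ADGRG1 was near background and apart from the other TAM arrays, and without it the change was -1.93, smaller than those of the other genes named as large falls here. The p of ADGRG1 was 0.000162, 0.000187 and 0.000133 without EtOH replicates 1, 2 and 3. CLDN1, EHF, TFCP2L1, PPL, SOX9, SEMA3C and ALDH3A1, the other large falls, are described with their groups.

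**Figure D2:**
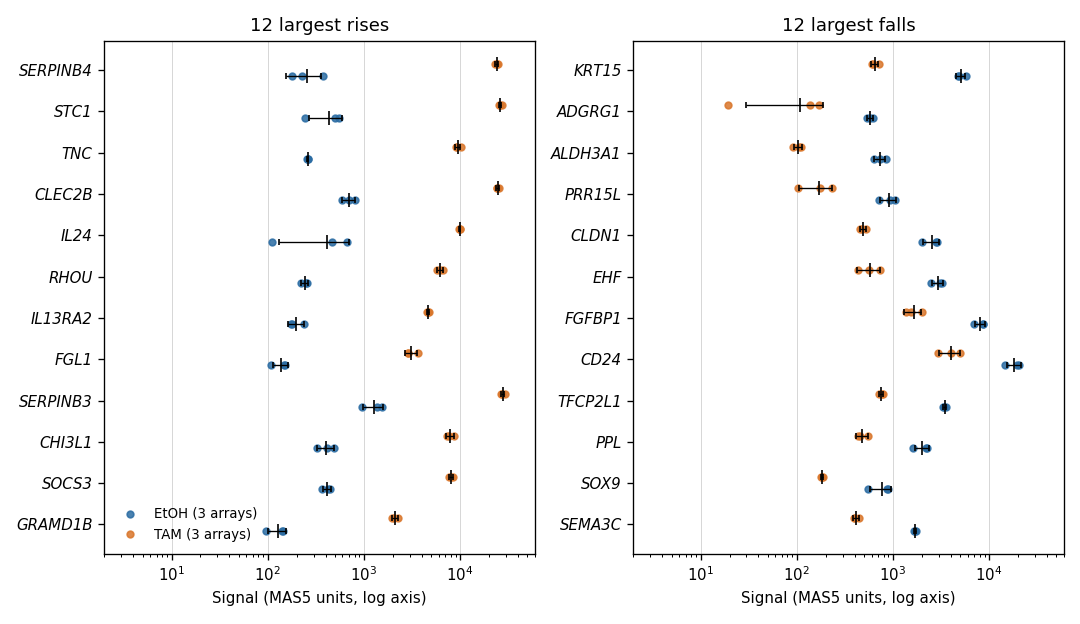
Signal in MAS5 units (log axis) of each array for 12 rises and 12 falls, the largest among genes with both means of at least 100 units, with EtOH in blue and TAM in orange. Vertical ticks are group means and bars the SD of 3 arrays, and for no gene do the groups overlap.

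A small set of genes went from background to a clear signal. With an EtOH mean under 50 units and a TAM mean of at least 500 units, 8 genes were switched on, and none was switched off by the reverse limits. GZMB, the protease granzyme B of killer lymphocytes, measured 7.08, 6.74 and 10.2 units with EtOH and 1541, 1493 and 1522 units with TAM. RASD1, a Ras-like GTPase, measured 23, 11.5 and 10.8 units with EtOH and 1571, 1545 and 2101 units with TAM. ENTPD3, an enzyme that splits extracellular nucleotides, measured 58.1, 41.7 and 44.8 units with EtOH and 1402, 2144 and 1556 units with TAM. The EtOH signals of all 3 were near background, so that the fitted changes of 7.59, 6.92 and 5.13 on the log2 scale are imprecise. ECSCR, a membrane protein of endothelial cells, measured 8.99, 30.3 and 38.8 units with EtOH and 654, 565 and 736 units with TAM, and SHOC1, known from meiosis, measured 29.7, 44.8 and 39.9 units with EtOH and 868, 843 and 748 units with TAM. Of the 8 endothelial markers none rose. PECAM1 fell by 1.15 on the log2 scale, CDH5 and VWF were at 11.2 ± 4.16 and 12.2 ± 9.7 units and 10.7 ± 5.55 and 18.3 ± 19.2 units, and TEK, at 21.6 ± 23 and 166 ± 45.7 units, did not pass. NKG7 and GNLY, which killer lymphocytes express with granzyme B, were at 5.8 ± 3.61 and 9.38 ± 5.01 units and 5.55 ± 0.894 and 17.5 ± 8.37 units. PPBP, a chemokine of platelets, measured 30.5, 37.6 and 19 units with EtOH and 662, 879 and 500.3 units with TAM, and its call was lost without any single array of the 6, with p from 0.000209 to 0.000542. The other members of this set are IL33, a cytokine of the interleukin-1 family, and LINC01127, a non-coding RNA gene in the same genomic run as interleukin-1 receptor genes. Both are described below.

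Upstream sequence was available for part of the called genes. RefSeq windows of the 250 bases before a transcription start (GRCh38.p14) covered 480 risers and 490 fallers in 781 and 811 windows, and 15384 tested genes in 21490 windows. The letters TTCNNNGAA, the core that STAT proteins bind, occurred on either strand in 7.94% of riser windows, 4.56% of faller windows and 5.87% of all windows. TGANTCA, the AP-1 core, occurred in 8.07%, 5.43% and 5.37%. CCGGAAGT, an ETS core, was in 1.92%, 1.48% and 4.45%, and CCAAT, the NF-Y core, in 29.2%, 35.1% and 32.4%. Most windows of called genes thus held neither a STAT nor an AP-1 core, and a match is a description of the letters, not a site of binding. To show where such cores lie, the windows of 4 risers with large changes, chosen because they hold a core, are printed below. They run 5′ to 3′ on the strand of the gene, with the matched core in capitals. Cores were not confined to these genes or to risers. The riser MX1 had an AP-1 core 205 bases before the start, and the faller ADGRG1 a STAT core 237 bases before it.
GZMB (chr14:24634191-24634440, minus strand): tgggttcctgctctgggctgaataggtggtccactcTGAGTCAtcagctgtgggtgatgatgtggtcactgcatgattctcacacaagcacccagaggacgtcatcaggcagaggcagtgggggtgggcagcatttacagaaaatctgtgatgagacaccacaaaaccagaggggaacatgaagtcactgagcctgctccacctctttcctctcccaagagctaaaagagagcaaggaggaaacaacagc
IL1RL1 (chr2:102337007-102337256, plus strand): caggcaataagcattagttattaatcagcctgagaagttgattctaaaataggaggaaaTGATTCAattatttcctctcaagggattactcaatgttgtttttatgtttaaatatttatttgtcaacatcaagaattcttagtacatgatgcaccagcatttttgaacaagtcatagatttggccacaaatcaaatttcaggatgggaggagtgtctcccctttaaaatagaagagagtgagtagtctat
PLAUR (chr19:43670170-43670419, minus strand): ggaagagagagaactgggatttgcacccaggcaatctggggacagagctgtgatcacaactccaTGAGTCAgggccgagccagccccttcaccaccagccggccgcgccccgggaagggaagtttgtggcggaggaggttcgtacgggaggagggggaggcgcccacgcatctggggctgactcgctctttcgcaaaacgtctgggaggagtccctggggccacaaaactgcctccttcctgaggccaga
SERPINB1 (chr6:2841864-2842113, minus strand): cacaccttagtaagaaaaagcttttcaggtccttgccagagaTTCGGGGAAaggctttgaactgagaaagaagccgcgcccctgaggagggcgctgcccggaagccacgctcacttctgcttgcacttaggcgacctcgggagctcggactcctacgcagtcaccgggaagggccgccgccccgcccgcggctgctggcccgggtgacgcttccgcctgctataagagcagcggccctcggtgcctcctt
The core starts 214 bases before the start in GZMB, 191 in IL1RL1, 186 in PLAUR and 208 in SERPINB1. It is an AP-1 core in the first 3 of these genes and a STAT core in SERPINB1.

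Of 39 measured STAT3 feedback and target genes, 13 rose, none fell and 26 did not pass, and the list median was 0.49. This list and those below were chosen with earlier results of these data known, so their shares are a description only. Of all genes 3.03% were called higher and 3.08% lower. SOCS3, the feedback inhibitor of JAK and STAT3 signaling, measured 446, 369.6 and 428 units with EtOH and 8070.0, 8494 and 7602 units with TAM, a change of 4.28 (SE 0.34, adjusted p = 1.55e-07). SERPINA1, the acute-phase inhibitor of neutrophil elastase, measured 1812, 2606 and 1940.3 units with EtOH and 19844, 19691 and 18336 units with TAM, a change of 3.20 (SE 0.14, adjusted p = 6.26e-11). SERPINA3, a related acute-phase inhibitor, measured 2644, 2646 and 3494 units with EtOH and 11097, 10068 and 11125 units with TAM, a change of 1.89 (SE 0.11, adjusted p = 2.08e-09). In all 3 the TAM arrays stood several fold above the highest EtOH array. SOCS1, a second feedback inhibitor, rose by 1.90 from 59 units, and VEGFA, the growth factor of blood vessels, by 1.54 from 3531 units. Haptoglobin, HP, measured 48.4, 48.4 and 78.7 units with EtOH and 720.3, 568 and 522 units with TAM, and its p was 0.000122 without EtOH replicate 1, 0.000122 without EtOH replicate 2 and 0.000127 without TAM replicate 1. LRG1, a plasma glycoprotein, measured 58.8, 47.4 and 79.9 units with EtOH and 324, 308 and 375 units with TAM, and CRP, the C-reactive protein, measured 9.63, 2.15 and 4.57 units with EtOH and 169, 144 and 155 units with TAM. Both were near background with EtOH. STAT3 itself measured 4303, 4104 and 3968 units with EtOH and 6753, 5955 and 5650.1 units with TAM, a change of 0.57 with p above the limit for a call (adjusted p = 0.00973), although its arrays did not overlap. IL6, the cytokine that starts STAT3 signaling in many cells, measured 194, 191 and 176 units with EtOH and 180.3, 178 and 204 units with TAM. Its groups overlapped, and the difference was 0.003 with SE 0.27.

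Of 25 measured AP-1 and immediate early factors, 12 rose and 2 fell, with a median of 0.66. FOS measured 1057, 1054 and 1071 units with EtOH and 4427, 4308 and 4378 units with TAM, a change of 2.04 (SE 0.11, adjusted p = 1.11e-09). BATF3, an AP-1 partner better known from dendritic cells, measured 219, 204 and 238 units with EtOH and 2159, 2298 and 2718 units with TAM, a change of 3.44 (SE 0.18, adjusted p = 6.48e-10). ATF3, a stress-induced partner, measured 94.5, 89.9 and 117 units with EtOH and 717, 645 and 718 units with TAM, a change of 2.80 (SE 0.11, adjusted p = 4.46e-11). These 3 genes differed in level, and their lack of overlap between groups is shared by every called gene. FOSL1, FOSL2 and JUN rose by 1.33, 1.26 and 1.25, and ETS2, a nuclear target of ERK, by 1.38. JUNB measured 469, 227 and 519 units with EtOH and 839.5, 774 and 918 units with TAM, which did not pass (adjusted p = 0.0082), and EtOH replicate 2 was well below the other EtOH arrays. FOSB stayed near background at 29 ± 25.6 and 37.7 ± 28.7 units. EGR1, the early growth response factor, measured 3778, 3866 and 3939 units with EtOH and 4553, 4362 and 5146 units with TAM, a change of 0.28 that did not pass. The members that fell were JUND, by 0.74, and KLF4, a factor of epithelial differentiation, by 1.59 to 208 units.

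The ERK list of feedback inhibitors and EGF receptor ligands had 7 risers and 2 fallers among 25 members, with a median of 0.02. TGFA, a ligand of the EGF receptor, measured 888, 1042 and 960.1 units with EtOH and 2513, 2512 and 2291 units with TAM, a change of 1.34 (SE 0.09, adjusted p = 1.86e-08). DUSP6, the phosphatase of ERK, measured 4549.8, 5099.6 and 5795 units with EtOH and 11092, 10334 and 12598 units with TAM, a change of 1.14 (SE 0.12, adjusted p = 2.82e-06). SPRED1 and PHLDA1, an inhibitor of Ras and a target of ERK, rose by 1.40 and 1.07, while SPRY2, another inhibitor of the cascade, fell by 0.91. The ligands and feedback genes therefore did not move as one. Of 24 NF-kB subunits and targets, 5 rose and 1 fell, with a median of 0.28. PTGS2, the inducible cyclooxygenase, measured 198, 215 and 173 units with EtOH and 650.2, 684 and 706 units with TAM, a change of 1.81 (SE 0.18, adjusted p = 1.57e-06). PLAU, the protease urokinase, rose by 1.32, and IRAK2, a kinase of interleukin-1 signaling, by 1.22. TNFAIP2 was the member that fell, by 0.94. The subunit gene NFKB1 measured 1240.4, 1074 and 1117 units with EtOH and 1405, 1421 and 1166 units with TAM, with overlapping groups (adjusted p = 0.291).

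Interleukin genes changed in both directions, with ligand and receptor of one pathway rising together. Of 40 measured interleukins, chemokines and receptors, 11 rose and 3 fell, and the median was 0.33. IL33, an alarm cytokine of the interleukin-1 family, measured 4.7, 31.7 and 22.7 units with EtOH and 1573, 1631 and 1913 units with TAM, from background to a clear signal on all 3 TAM arrays. IL1RL1, which encodes the receptor of IL33, measured 555, 466 and 633 units with EtOH and 6191, 5888 and 6471 units with TAM, a change of 3.50 (SE 0.26, adjusted p = 6.89e-08). IL1RAP, the chain that this receptor shares with the interleukin-1 receptor, measured 1636, 1674 and 1429.7 units with EtOH and 6831, 7468 and 5392 units with TAM, a change of 2.04 (SE 0.11, adjusted p = 1.84e-09). All 3 components had every TAM array above every EtOH array, as did every called riser. The signaling receptor IL1R1 rose by 1.37 and the decoy receptor IL1R2 by 2.33. The fallers were IL1RN, the secreted antagonist of that receptor, which measured 592, 756 and 355 units with EtOH and 109.6, 169 and 139 units with TAM, IL18, by 1.30, and IL20RB, by 0.79. IL24, a cytokine of the interleukin-10 family, measured 666, 463 and 111 units with EtOH and 9949.9, 9993 and 9864 units with TAM, a change of 4.93 (SE 0.56, adjusted p = 9.48e-06). Its EtOH arrays were far apart, with replicate 3 the lowest, and its TAM arrays nearly equal. Among signals to granulocytes and dendritic cells, CXCL3 rose by 2.48, CSF3 by 2.21, CCL20 by 1.97 and TSLP by 1.41.

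Genes that break down, build or bind the matrix changed in both directions. Of 40 matrix proteases and inhibitors, 9 rose and 3 fell, with a median of -0.06. ADAM19, a membrane metalloprotease, measured 79.7, 68 and 64.4 units with EtOH and 2937, 2952 and 3001 units with TAM, a change of 5.39 (SE 0.30, adjusted p = 1.40e-09). ADAMTS9, a secreted metalloprotease, measured 65.7, 105 and 79.9 units with EtOH and 1408, 1350.1 and 1209 units with TAM, a change of 4.01 (SE 0.21, adjusted p = 1.00e-09). PLAUR, the urokinase receptor, measured 1181, 1109.9 and 689 units with EtOH and 5673, 5477 and 5487 units with TAM, a change of 2.52 (SE 0.15, adjusted p = 2.88e-09). The EtOH arrays of both metalloproteases were near background, and EtOH replicate 3 was the lowest for PLAUR. The lysosomal proteases CTSL and CTSB reached 24207 and 21272 units, rises of 2.39 and 1.56. MMP14, the membrane-bound collagenase, rose by 1.56 and MMP3 by 2.24, and the inhibitor TIMP3 fell by 1.59. Of 43 matrix proteins and collagen genes, 10 rose and 7 fell, with a median of -0.07. TNC, the matrix glycoprotein tenascin-C of healing wounds, measured 264, 256 and 259.7 units with EtOH and 9132, 9223 and 10168 units with TAM, a change of 5.19 (SE 0.14, adjusted p = 6.45e-13). The collagen cross-linking enzymes LOX and LOXL2 rose by 1.89 and 1.36, and SPP1, osteopontin, by 2.23 from background. THBS1, thrombospondin, fell by 1.00, and MGP, an inhibitor of calcification, measured 134, 143 and 115 units with EtOH and 6.89, 5.42 and 5.02 units with TAM, all under 10 units with TAM. Of 12 integrins, 2 rose and none fell. They were the fibronectin receptor chain ITGA5 and the collagen receptor chain ITGA2, at 1.73 and 1.32.

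Of 21 complement and coagulation genes, 10 rose, none fell and 11 did not pass, with a median of 0.67. F5, coagulation factor V, measured 178, 158 and 166 units with EtOH and 1189.9, 1182 and 1253 units with TAM, a change of 2.85 (SE 0.21, adjusted p = 6.41e-08). THBD, thrombomodulin, which turns thrombin toward an anticoagulant role, measured 1148, 1192 and 1063 units with EtOH and 3842, 4036 and 4483 units with TAM, a change of 1.86 (SE 0.08, adjusted p = 4.46e-11). CD55, which protects cells from complement, measured 3967, 4124 and 3720.4 units with EtOH and 11519, 12230.0 and 11819.8 units with TAM, a change of 1.59 (SE 0.09, adjusted p = 3.23e-09). The members that rose thus include activators such as CFB, at 1.22, and inhibitors such as CD55 and CD59, the latter at 0.89.

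Cell junction genes fell more often than they rose. Of 25 members of tight and adherens junctions, 8 fell and 2 rose, with a median of -0.22. CLDN1, a sealing protein of tight junctions, measured 2871, 2796 and 2008 units with EtOH and 454, 483 and 529 units with TAM, a change of -2.37 (SE 0.12, adjusted p = 6.22e-10). OCLN, occludin, measured 2292, 2262 and 1685 units with EtOH and 738, 754 and 555 units with TAM, a change of -1.61 (SE 0.14, adjusted p = 4.12e-07). CDH1, the E-cadherin of adherens junctions, measured 6852, 7525 and 6205 units with EtOH and 3006, 3503 and 2737 units with TAM, a change of -1.16 (SE 0.09, adjusted p = 1.03e-07). In each the lowest EtOH array was EtOH replicate 3 and still far above the TAM arrays. CLDN7 and CGN, a claudin and the scaffold cingulin, fell by 1.33 and 1.42. The risers were NECTIN1, by 0.97, and CLDN12, by 0.69. Of 17 desmosome and hemidesmosome genes, 4 fell and none rose, with a median of -0.40. PPL, periplakin, measured 2198, 2245 and 1628 units with EtOH and 458, 556 and 432 units with TAM, a change of -2.06 (SE 0.12, adjusted p = 3.30e-09), and JUP, plakoglobin, fell by 0.85. Of 19 keratins and other intermediate filament genes, 4 fell and none rose. KRT8, a keratin of simple epithelia, measured 6307, 6356 and 5140.0 units with EtOH and 2593, 2789 and 2528 units with TAM, a change of -1.17 (SE 0.10, adjusted p = 3.97e-07), and KRT7 fell by 0.79. VIM, the mesenchymal filament vimentin, measured 20760.4, 18719 and 16891 units with EtOH and 17611, 18984 and 17291 units with TAM, with overlapping groups and a difference of -0.06. The luminal marker list, which shares KRT8, had no other called member, and TRIM29 was the basal marker that fell, by 1.22.

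Of 33 measured transcription factors of epithelial and mesenchymal cells, 7 fell, 6 rose and 20 did not pass, with a median of -0.15. EHF, an ETS factor restricted to epithelia, measured 3231, 3081 and 2473 units with EtOH and 559, 742 and 431 units with TAM, a change of -2.37 (SE 0.17, adjusted p = 4.74e-08). GRHL3, a factor of barrier formation, measured 732, 818 and 514 units with EtOH and 102, 113 and 82.7 units with TAM, a change of -2.78 (SE 0.16, adjusted p = 1.90e-09). SOX9, a factor of mammary progenitors, measured 875, 885 and 554 units with EtOH and 189, 178 and 181 units with TAM, a change of -2.04 (SE 0.17, adjusted p = 1.85e-07). In EHF and SOX9 the TAM arrays lay below the lowest EtOH array, and GRHL3 came down to the level of the array background. OVOL1, another epithelial factor, fell by 1.82. FOXQ1, a forkhead factor, measured 266, 260.2 and 197 units with EtOH and 1292, 1315 and 1309.7 units with TAM, a change of 2.45 (SE 0.14, adjusted p = 2.38e-09). ZEB1 and ZEB2, repressors of CDH1, rose by 0.86 and 1.35, the latter from 122 to 314 units. SNAI2, a repressor of the same kind, measured 2127, 2005 and 2279.6 units with EtOH and 3186, 3199.7 and 2825 units with TAM, a change of 0.52 that was 0.48, 0.49 and 0.49 without EtOH replicate 2, TAM replicate 1 and TAM replicate 2 and so under the limit of 0.5. The epidermal differentiation list had 7 risers and 4 fallers of 34. Of the risers, 5 were clade B serpins, among them SERPINB1, an inhibitor of neutrophil proteases, which measured 2179, 2002 and 1804 units with EtOH and 20444, 21518 and 20444 units with TAM. TGM2, tissue transglutaminase, rose by 3.20, while TGM1, the transglutaminase of the cornified envelope, fell by 1.44 and SPRR1B, a precursor of that envelope, by 1.68.

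Of 35 NRF2 targets and xenobiotic enzymes, 9 fell, none rose and 26 did not pass, with a median of -0.34. ALDH3A1, an aldehyde dehydrogenase, measured 727, 636 and 839 units with EtOH and 91.4, 110.3 and 106 units with TAM, a change of -2.84 (SE 0.15, adjusted p = 7.29e-10). AKR1C1, an aldo-keto reductase of steroids, measured 9380.5, 9703 and 9394 units with EtOH and 4603, 4709 and 4675 units with TAM, a change of -1.03 (SE 0.06, adjusted p = 5.12e-09). Its close copy AKR1C2, whose probe set may share its RNA, measured 8301, 8063 and 8030.1 units with EtOH and 3861, 3952 and 3726 units with TAM. The replicates of both reductases were close, and the TAM arrays lay at about the midpoint between 0 and the EtOH arrays. GCLC, the enzyme that limits glutathione synthesis, fell by 1.02 and the quinone reductase NQO1 by 0.68. Of 32 sterol and fatty acid genes, 7 fell and 2 rose, with a median of -0.32. LPIN1, a phosphatase of lipid synthesis, measured 4311, 4260.2 and 4545 units with EtOH and 1550.3, 1644 and 1720.3 units with TAM, a change of -1.42 (SE 0.07, adjusted p = 8.59e-10). LSS, which closes the sterol rings, fell by 1.09 and the regulator SREBF1 by 0.95. ABCA1, which exports cholesterol from cells, went the other way and measured 84.7, 68.6 and 85.7 units with EtOH and 826, 1054 and 1176 units with TAM, a change of 3.67 (SE 0.25, adjusted p = 2.35e-08).

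Of 39 genes of glycolysis, glucose transport and hypoxia, 7 rose and 2 fell, with a median of -0.002. PFKFB3, which makes the activator of phosphofructokinase, measured 1093, 976 and 993 units with EtOH and 7321, 7296 and 7612 units with TAM, a change of 2.86 (SE 0.09, adjusted p = 1.41e-12). NDRG1, a hypoxia-induced gene, measured 3243, 3195 and 1913 units with EtOH and 17092, 17823 and 17722 units with TAM, a change of 2.70 (SE 0.16, adjusted p = 4.42e-09). EGLN3, an oxygen-sensing prolyl hydroxylase, rose by 2.61 and the glucose transporter SLC2A3 by 1.70, while PDK4, a brake on pyruvate oxidation, fell by 1.10. The other 30 members did not pass. None of 25 respiratory chain genes was called in limma, and their median was -0.21. SLC7A5, the light chain of the leucine carrier, measured 13795, 14669.9 and 13321 units with EtOH and 6151, 6234 and 5653 units with TAM, a change of -1.21 (SE 0.08, adjusted p = 1.53e-08), and its partner chain SLC3A2 fell by 1.12. The wider list of the ATF4 response and endoplasmic reticulum stress had 5 risers and 3 fallers among 41, with a median of 0.09. VLDLR, a lipoprotein receptor, rose by 2.40, and ERO1A, an oxidase of protein folding, by 0.89, and the count of risers was 2 without EtOH replicate 1, TAM replicate 1 or TAM replicate 3 and 3 without EtOH replicate 2, EtOH replicate 3 or TAM replicate 2, as well as with a replicate block and after median centring. Of 30 glucocorticoid-responsive genes, 8 fell and 3 rose, with a median of -0.24. TFCP2L1, an epithelial factor, measured 3347, 3441 and 3580.0 units with EtOH and 762, 711 and 782 units with TAM, a change of -2.20 (SE 0.07, adjusted p = 1.83e-12). TSC22D3, a mediator of steroid action in many cells, measured 1706, 1956 and 2247 units with EtOH and 1027, 900.2 and 1176 units with TAM, a change of -0.93 (SE 0.13, adjusted p = 7.29e-05). Of its 3 probe sets, 1 was called lower. The 3 sodium channel subunits SCNN1A, SCNN1B and SCNN1G fell by 0.79, 1.17 and 0.94, and the risers were KLF9, ANGPTL4 and HSD11B1, by 2.28, 1.93 and 1.59.

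Of 43 DNA replication genes, 7 fell, none rose and 36 did not pass, with a median of -0.33. E2F2, an activator of S-phase genes, measured 526, 501 and 484 units with EtOH and 212, 232 and 187 units with TAM, a change of -1.26 (SE 0.10, adjusted p = 1.48e-07), and it kept its call without any 1 array. The other 6, RFC5, PCNA, UHRF1, LIG1, GINS2 and MCM10, had changes from -0.61 to -0.50, close to the limit for a call, and the list had 3 fallers without EtOH replicate 2, 3 without TAM replicate 3, 4 without EtOH replicate 1, 4 without EtOH replicate 3 and 3 after median centring. In the fits on the 12 control siRNA arrays and on the 6 arrays of 24 h the list had 2 fallers and 1 faller. At an adjusted p under 0.05 in limma with no limit on the fold, 19 of the 43 members were lower, against 1841 of all 19775 genes. With an absolute log2 change over 1 as well, 1 member was lower. Of 38 mitotic genes, 1 rose and none fell, with a median of 0.05. CDK1, the kinase that drives entry into mitosis, had means of 7113 ± 764 and 5670.3 ± 179.8 units, and the proliferation marker MKI67 had 2686 ± 117 and 3476 ± 124 units. The difference between the lists was not tested. Among 28 cyclins, CDK inhibitors and p53 targets, 4 rose and 5 fell. CCND1, cyclin D1, measured 2122, 1978 and 2446 units with EtOH and 2796, 2987 and 2968 units with TAM, and CDKN1A, the inhibitor p21, measured 1481, 1456 and 1211 units with EtOH and 1919.7, 1960.0 and 2049.8 units with TAM. Neither passed, with changes of 0.42 (adjusted p = 0.00838) and 0.52 (adjusted p = 0.0109). CCNG2, a cyclin of growth arrest, rose by 1.31, and CCND2 and CDKN1C fell by 1.08 and 1.31. MYC, on which growth of many tumors rests, measured 9711, 9854 and 9366 units with EtOH and 9476, 8446 and 8319.8 units with TAM, with a difference of -0.14 (adjusted p = 0.395). Of 27 survival and death genes, 8 rose and none fell, with a median of 0.25. The risers include BCL2A1, which protects from apoptosis, at 1.92, and BIK and BCL2L11, which promote it, at 1.16 and 0.71.

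The other lists had smaller shares or mixed signs. Of 33 TGF-beta, activin and BMP genes, 7 rose and 2 fell. LTBP1, which stores TGF-beta in the matrix, measured 4146, 4139.8 and 4069.6 units with EtOH and 8822, 8815 and 9366 units with TAM, a change of 1.13 (SE 0.06, adjusted p = 1.20e-09), and the ligand BMP2 rose by 1.56. Of 40 Wnt, Notch and Hippo genes, 5 fell and 1 rose. The Wnt antagonists DKK1 and SFRP1 fell by 1.82 and 1.37, from 6732 and 10438 units, and the Notch ligand JAG1 rose by 1.12. The list had 3 fallers without any 1 of the EtOH arrays. Among 52 small GTPase and cytoskeleton genes, 7 rose and 5 fell, and 4 rose without EtOH replicate 3, TAM replicate 1 or TAM replicate 2. PXN, the adhesion protein paxillin and a Src substrate, measured 820.4, 993 and 728 units with EtOH and 1747, 1923 and 1678 units with TAM, a change of 1.08 (SE 0.16, adjusted p = 0.000148). Among 32 guidance genes, 5 rose and 4 fell. The semaphorins SEMA4B and SEMA3C moved apart, by 1.84 and -2.03, and the ephrin receptor EPHB3 fell by 2.77 to 24.4 units. Of 17 clock genes, 3 rose and 2 fell, led by BMAL2 with 2.16. Of 38 interferon-stimulated genes, 3 rose and none fell. MX1 measured 26.2, 4.84 and 16 units with EtOH and 281, 296 and 275 units with TAM, near background with EtOH, and its p was 0.000131 without EtOH replicate 2. SP100 and IRF9 rose by 0.99 and 0.87. Of 15 prostaglandin genes, PTGES, PTGER4 and PTGS1 fell, by 1.10, 1.48 and 1.54, and the leukotriene receptor LTB4R rose by 0.86. This list does not hold the inducible cyclooxygenase PTGS2, which is counted with the NF-kB targets and rose by 1.81.

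**Figure D3:**
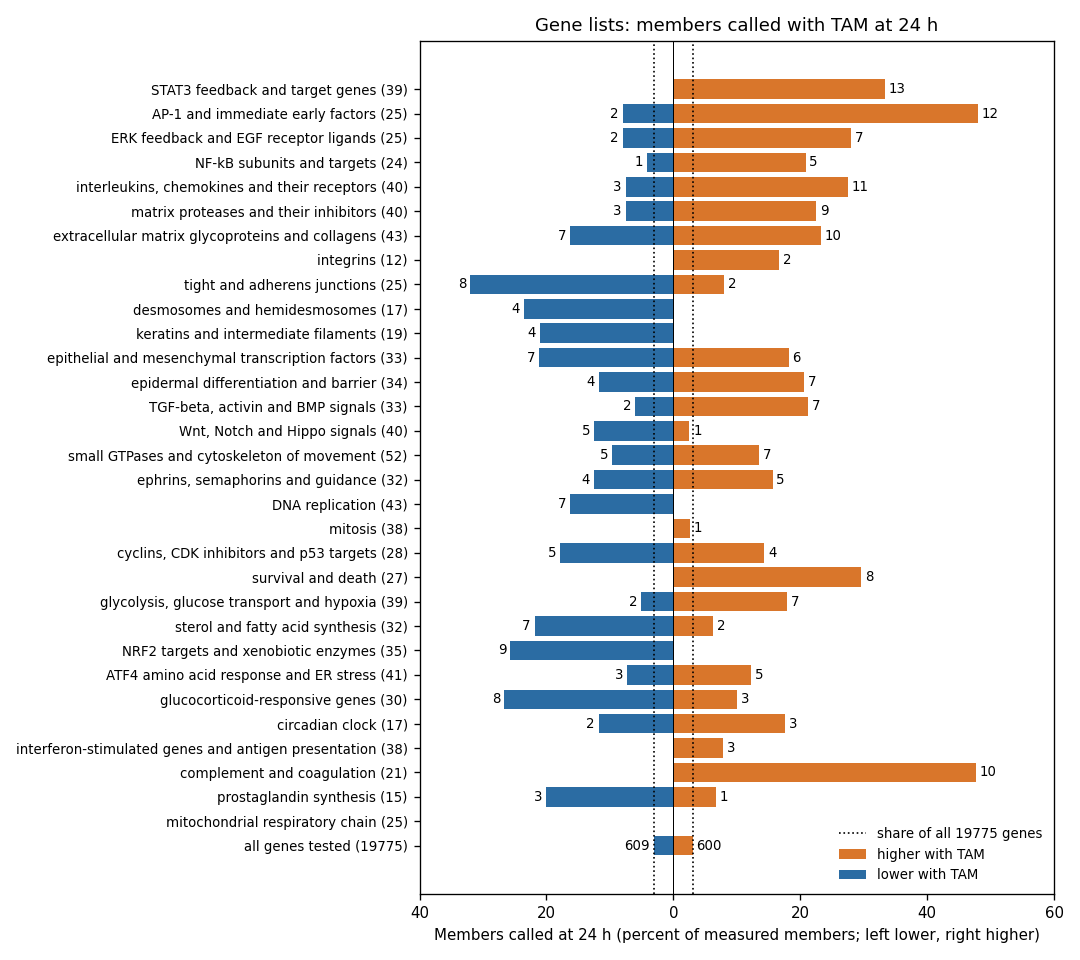
Share of measured members (percent, with the number of members in parentheses after each list name) called higher (orange, right) or lower (blue, left) with TAM at 24 h in each gene list, with the count at the end of each bar. Dotted lines are the shares of all 19775 genes, 3.03% and 3.08%, and the longest bars are the AP-1 list (12 of 25) and complement and coagulation (10 of 21) on the right and the junction list (8 of 25) on the left. Of all genes 11213 reached 100 units in either group, against 43 of 43 in the DNA replication list.

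The same treatment at 4 h, on arrays that are not shared with 24 h, moved fewer genes. At 4 h 189 genes were called higher and 110 lower. The 186 genes called at both times are 15.38% of the calls at 24 h and 62.21% of those at 4 h, and 182 of them kept their direction. The difference of the effects was fitted in the same model, and 309 genes (1.56% of those tested) had a higher and 224 (1.13%) a lower TAM effect at 24 h than at 4 h. Of the 600 risers 277 had such a higher effect, and of the 609 fallers 192 had a lower one. RHOU, with means of 86.8 ± 9.88 units without and 52.7 ± 8.4 units with TAM at 4 h, differed by 5.41 (SE 0.23, adjusted p = 1.40e-09). CLDN1, at 8248 ± 193 units without and 11606 ± 766 units with TAM at 4 h, differed by -2.86 (SE 0.17, adjusted p = 5.24e-08). KRT15, at 1676 ± 278 units without and 1475 ± 109 units with TAM at 4 h, differed by -2.81 (SE 0.17, adjusted p = 5.51e-08). The EtOH level of these genes also differed between the times, downward for CLDN1 and upward for RHOU and KRT15, so that the effects are set against different vehicle levels. EHF, SPRR1B and TSC22D3, called lower with TAM at 24 h, had higher means at 24 h than at 4 h with either agent. Their TAM means were 402, 128 and 388 units at 4 h and 577, 515 and 1034 units at 24 h. Their calls thus describe a level below the vehicle, not a fall since 4 h. Other called genes, such as E2F2 and SREBF1, had the same pattern. The mirror case occurred among risers. PLAU and ITGA2 had TAM means of 1920.8 and 8854.6 units at 4 h and of 1554.5 and 7389.9 units at 24 h. Their EtOH means went from 1659.4 and 5629.3 units to 623.8 and 2961.5 units. These 2 calls describe a level above the vehicle, not a rise since 4 h. IL24 had risen at 4 h already, with 432 ± 32.9 units without and 14544 ± 1049 units with TAM, and its difference of -0.14 did not pass (adjusted p = 0.965). The IL6 response was present at 4 h, with 400.0 ± 64.5 units without and 2672 ± 801 units with TAM, and at 24 h the means were 187 ± 9.71 and 188 ± 14.6 units, a difference of -2.70 (SE 0.38, adjusted p = 0.000381).

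**Figure D4:**
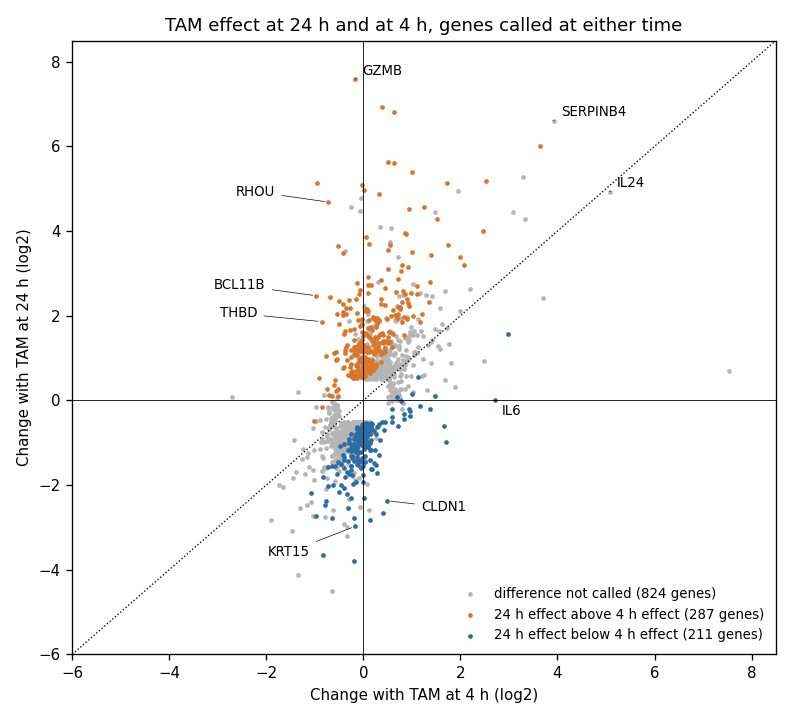
Change with TAM at 24 h against that at 4 h (both log2) for the 1322 genes called at either time, with the dotted line marking equal effects. Orange genes (287) had a called higher and blue genes (211) a called lower effect at 24 h. Of the orange genes near the top, GZMB and RHOU lie near or below 0 at 4 h. Others, such as STC1 and TNC, had already risen at 4 h, by 3.63 and 2.52 on the log2 scale.

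Direction turned in 4 genes that were called at both times. SNAI2, with 3389 ± 244 units without and 1799 ± 48.9 units with TAM at 4 h, fell then and rose at 24 h, a difference of 1.43 (SE 0.11, adjusted p = 5.87e-07). THBD, with 1557 ± 7.2 units without and 857 ± 61.9 units with TAM at 4 h, differed by 2.72 (SE 0.11, adjusted p = 9.24e-10). BCL11B, a zinc finger factor of basal epithelial and T cells, had 262 ± 10.7 units without and 133 ± 3.18 units with TAM at 4 h and 199 ± 15.2 and 1103 ± 17.3 units at 24 h, a difference of 3.45 (SE 0.23, adjusted p = 1.59e-07). These 3 fell first and were higher than their vehicle a day later. DNAJC6, a partner of clathrin uncoating, had 2269 ± 71 units without and 3412 ± 308 units with TAM at 4 h and 1176 ± 87 and 822 ± 83.3 units at 24 h, a difference of -1.10 (SE 0.13, adjusted p = 7.38e-05), and its 24 h call was kept only without TAM replicate 2, with p from 0.000106 to 0.000439 in the other 5 fits.

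**Figure D5:**
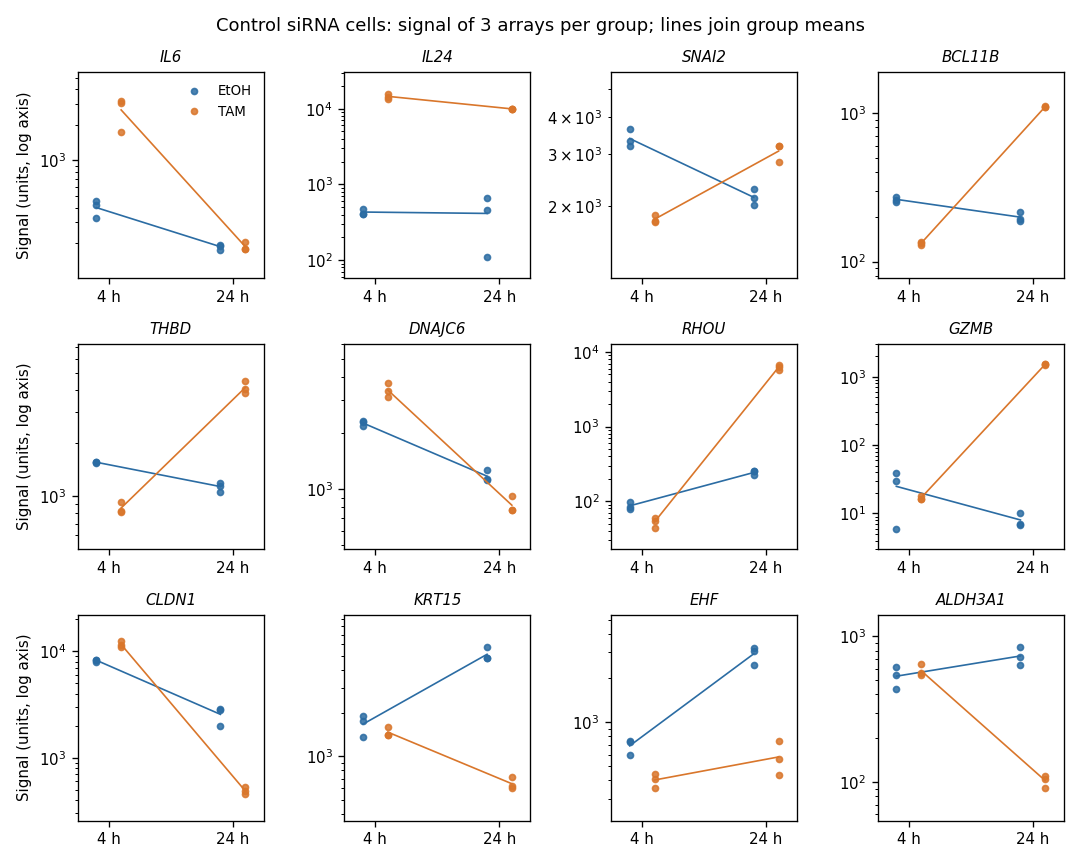
Signal in MAS5 units (log axes, scaled for each gene) on the 3 arrays of each control siRNA group at 4 and 24 h for 12 genes, with EtOH in blue and TAM in orange and lines joining group means. IL6 arrays part at 4 h and overlap at 24 h, the lines of SNAI2, BCL11B, THBD and DNAJC6 cross, and the EtOH lines of KRT15 and EHF climb while that of CLDN1 falls.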

How the data were processed

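The authors deposited MAS5 signal intensity on a linear scale for each of 23 arrays (HG-U133 Plus 2.0), scaled so that the mean after trimming 2% at each end is 500 on the arrays used here, and the deposited table was taken as it is. The signals were log2-transformed with no offset and no filter. A model with 1 mean for each of 8 groups was fitted to all 23 arrays with limma 3.58.1 in R 4.3.3 (lmFit and eBayes, 15 residual and 1.27 prior degrees of freedom). The methods state the limits for a call and do not name the test behind them. Calls needed p under 1e-04 with a log2 change beyond 0.5 in either direction, and p-values were adjusted over 54675 probe sets by the Benjamini-Hochberg method. Of these, 41097 carry 1 gene symbol in the platform annotation, 1801 several and 11777 none. A gene stands for its probe set of highest mean log2 signal, and 54 symbols were not found in the RefSeq gene table. The script was tested on simulated data.

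Named genes are the 12 largest rises and falls with means of at least 100 units, those that went from under 50 to at least 500 units, the 5 largest called members of each list, the largest differences from 4 h and a set named in any case. Others were chosen after their values were seen. The gene lists and the comparison were chosen with earlier results of these data known. Alternatives were fits on 12 or 6 arrays, quantile normalization, median centring, an offset of 50 units, a filter at 100 units, a trended prior, a replicate block, leaving out each array, other call limits and any probe set of a gene.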

Additional observations from a re-analysis of the deposited data

Results flagged for a closer look

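The effect of TAM differed between 24 h and 4 h in 533 genes, by the contrast of both effects in limma at p under 1e-04 and an absolute log2 difference over 0.5. All differences below are the log2 effect at 24 h minus that at 4 h. Among genes with at least 100 units in one 24 h group, GZMB differed by 7.76, RASD1 by 6.54, IL33 by 6.20, ENTPD3 by 6.09 and RHOU by 5.41. The other groups of the first 4 of these were near background, so that their order has no meaning, and with 50 units added before log2 the differences were 4.89, 4.69, 4.43, 4.56 and 4.84. CRP, at 5.13 (adjusted p = 0.00318), OLFM4, a secreted glycoprotein of gut stem cells, at 5.13 (adjusted p = 0.00196), and PAEP, the lipocalin glycodelin, at 4.98 (adjusted p = 0.00566), started from background too. OLFM4 measured 4.64, 4.54 and 4.68 units with EtOH and 224, 262 and 207 units with TAM at 24 h, and PAEP measured 2.75, 4.76 and 2.76 units with EtOH and 184, 132 and 175 units with TAM. BCL11B at 3.45, THBD at 2.72 and SNAI2 at 1.43 were lower with TAM at 4 h and higher at 24 h, and DNAJC6, at -1.10, was the reverse. IL6 had a difference of -2.70, with a TAM effect at 4 h and overlapping arrays at 24 h.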

How the results depend on the processing

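The number of genes called at 24 h (600 higher, 609 lower) depended on the arrays in the fit and on the limits for a call. With the 12 control siRNA arrays 457 were higher and 353 lower, and with the 6 arrays of 24 h alone 286 genes were called, 211 higher and 75 lower. At an adjusted p under 0.05 with no limit on the fold there were 3039 genes, 1198 higher and 1841 lower, and with an absolute log2 change over 1 there were 744, 421 higher and 323 lower. For the difference between 24 h and 4 h (533 genes), the 12 arrays gave 260 genes, 171 higher and 89 lower, and the adjusted limit 1105, 587 higher and 518 lower, or 145 lower with a log2 difference over 1. Leaving out 1 array gave 1028 to 1075 genes at 24 h (515 to 539 higher, 493 to 536 lower) and 417 to 470 for the difference (245 to 276 higher, 162 to 196 lower). Deviations of same-numbered EtOH and TAM arrays from their group means had correlations of 0.05, -0.11 and 0.10. Among fallers, replicate 3 was most often the lowest array in both groups, in 286 and 259 of 609 genes. With 3 arrays a group, these values cannot tell whether same-numbered arrays were paired. With the replicate block 591 genes were higher and 581 lower, 1153 of the 1172 shared with the fit without it, and the difference had 479 genes. Of 162 named genes called at 24 h, 82 missed the limits under some alternative, and no named effect turned its sign. Among 811 called genes with several probe sets, 364 had another called in the same direction and 2 one in the opposite direction. Signals near background limit the fold of genes such as GZMB, CRP and MX1.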

Other observations

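Genes that neighbour each other in the RefSeq order of the genome were looked at after their values had been seen. On chromosome 2 the interleukin-1 receptor family lies in a run from LINC01127 through IL1R2, IL1R1, IL1RL2, IL1RL1 and IL18R1 to IL18RAP, and 5 of its 7 measured genes rose with 24 h of TAM. The run holds 11 genes in the RefSeq order, and its start was set at LINC01127, itself a riser. For this run and the serpins below, the share of all genes called higher was 3.03%. LINC01127, a long non-coding RNA, measured 71.6, 8.71 and 36.5 units with EtOH and 1281, 1278 and 822 units with TAM, and IL18R1, the receptor of interleukin-18, measured 156, 136 and 173 units with EtOH and 364, 453 and 405 units with TAM, a change of 1.39 (SE 0.14, adjusted p = 1.64e-06). IL1RL2 and IL18RAP, in the same run, stayed near background at 16.8 ± 18.9 and 29.5 ± 21.9 units and 27.7 ± 8.69 and 18.6 ± 19.2 units. On chromosome 18, 4 of 9 measured clade B serpin genes rose, namely SERPINB13, SERPINB4, SERPINB3 and SERPINB8. SERPINB13, an inhibitor of cathepsin L, measured 139.6, 138 and 93.2 units with EtOH and 307, 374 and 410.4 units with TAM, a change of 1.57 (SE 0.18, adjusted p = 1.10e-05). SERPINB1, which rose as well, is on chromosome 6. SERPINB4 and SERPINB3 may share RNA on the array, as may others of this family.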
